A study of Mus musculus with 21 samples.

Results

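The cohesin subunits described here were 9 genes of the 24456 in the count tables. They were the SMC genes Smc1a, Smc1b and Smc3, the kleisin genes Rec8, Rad21l and Rad21, and the STAG genes Stag1, Stag2 and Stag3. The genes were selected by name with no threshold on a measured value, with earlier results of these data known, and all 9 were found under these symbols in each of the 21 libraries. Of these, 4 are meiotic paralogs (Smc1b, Rec8, Rad21l and Stag3), 4 are their mitotic counterparts (Smc1a, Rad21, Stag1 and Stag2), and Smc3 is shared by both kinds of complex.

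RNA was sequenced from purified fractions of mouse testis cells of wild-type (WT) mice and of H2al2 KO mice, in which the gene of the testis histone variant H2A.L.2 is inactivated. Pachytene spermatocytes (cells in meiotic prophase), round spermatids (haploid cells after meiosis) and condensing spermatids (haploid cells that compact their chromatin) each gave 3 WT and 3 KO libraries, and spermatozoa gave 2 WT libraries and 1 KO library. No other allele or treatment is named for either genotype, and strain and age are not given in the sources used here. The WT round spermatid libraries are called biological replicates, and nothing says whether the other libraries of a group came from separate mice, so that p-values measure the spread between libraries, which may be technical.

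Cohesin is a ring that holds sister chromatids together and extrudes loops of chromatin. A pair of SMC proteins forms the arms of the ring, a kleisin closes it, and a STAG protein binds the kleisin. In meiotic germ cells SMC1B, REC8, RAD21L and STAG3 take the places of their mitotic paralogs in part of the rings. These rings build the axes along which homologous chromosomes pair. Rings with REC8 hold sister centromeres together through the first meiotic division. Spermatids do not divide again.

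The levels below are normalized CPM, that is counts divided by the library's total on genes (CPM) after TMM normalization on 1 scale for all 21 libraries, and levels of different genes were compared only as CPM per kb of the union of their exons. Counts on genes ranged from 2772995 to 8201682 per library, with a median of 6872271. The gene of H2A.L.2, listed as H2afb1, had a mean of 206 CPM in WT and 23.8 CPM in KO round spermatids (log2 fold change −3.10, SE 0.10, adjusted p 3.4e-08 by edgeR). In condensing spermatids it had 200.03 and 30.7 CPM (log2 fold change −2.71, edgeR adjusted p 9.54e-07), and in pachytene spermatocytes 30.7 and 4.30 CPM (log2 fold change −2.75, edgeR adjusted p 0.484). The summed CPM of 7 spermatocyte markers was 3720 to 4063 in pachytene, 1772 to 1978 in round and 1325 to 1812 in condensing libraries, and that of 6 round spermatid markers was 348 to 538, 1250 to 1423 and 697 to 836. Markers of elongating spermatids (7 genes) summed to 2001 to 5037 CPM in pachytene, 21869 to 28269 CPM in round and 22826 to 35814 CPM in condensing libraries. Their sums thus overlapped between round and condensing libraries. WT round spermatid replicates 2 and 3 differed by little more than counting noise (mean chi-square 1.06 per gene, against 1.90 to 12.2 for the other pairs). The most abundant genes differed more (8.76, against 65.9 to 593 for the other pairs). Fold changes of single genes are also given below with the counts of replicates 2 and 3 summed where this ended a call.

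Libraries of the same group also differed in how genes of low and high GC content were represented. A GC index was taken as the median log2 deviation from the group mean of genes in the lowest quartile of GC content minus that of genes in the highest quartile. It was lowest in pachytene WT replicate 2 (−0.29), pachytene KO replicate 3 (−0.20), round KO replicate 1 (−0.15) and round WT replicate 1 (−0.13), highest in pachytene WT replicate 3 (0.25), and within 0.07 of 0 in condensing libraries. The deviations of Smc1b (39.8% GC), Smc3 (42.3%) and Stag2 (38.1%) from their group means followed this index over the 18 libraries of the 3 stages (Pearson's r = 0.92, 0.86 and 0.86), those of Rec8 (56.7% GC) and Stag3 (49.6%) ran against it (r = −0.81 and −0.64). Stag1 (41.9% GC) followed it with r = 0.74, Rad21l (40.9%) with 0.56 and Smc1a (46.9%) with 0.34, and Rad21 (44.3%) had r = −0.06. These correlations are a description of libraries that share their GC index with all other genes. Pachytene WT replicates 1, 2 and 3 also differed in summed round spermatid markers (468, 538 and 348 CPM). In pachytene KO replicates 1, 2 and 3 these sums were 393, 407 and 404 CPM. The part of such cells in the deviations was not tested. Because of these GC differences, the fold changes of single genes were also computed with the GC trend removed and without the 4 libraries of lowest index.

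**Figure D1:**
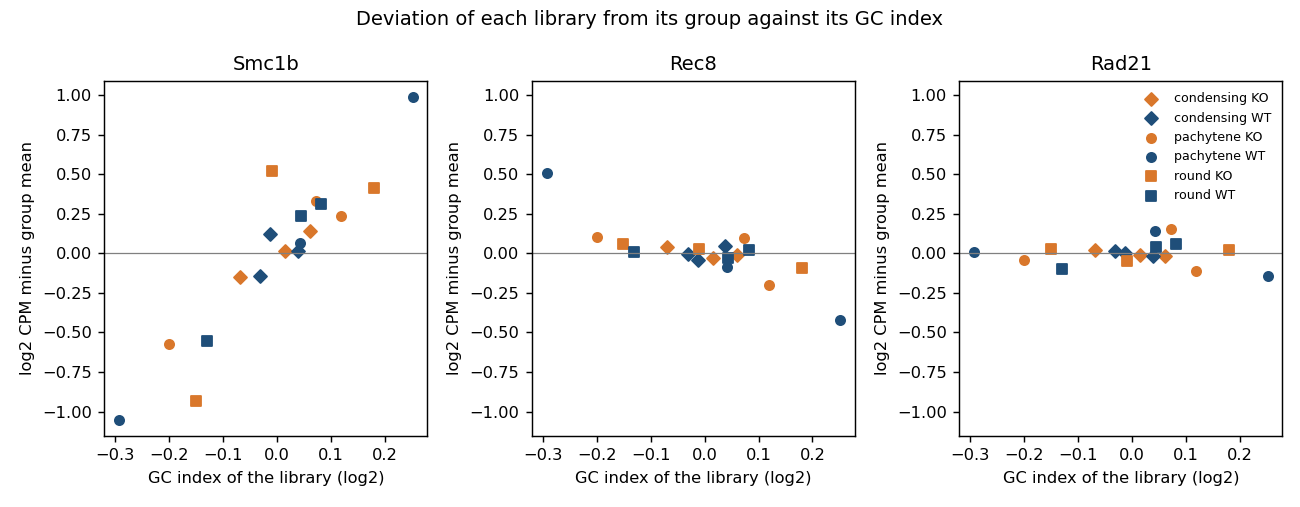
Each point is 1 of the 18 libraries of the 3 stages (circles pachytene, squares round, diamonds condensing; blue WT, orange KO); the x axis gives the library's GC index (log2) and the y axis its log2 normalized CPM minus the mean of its group, for Smc1b, Rec8 and Rad21. Smc1b rises with the index (r = 0.92), Rec8 runs the other way (r = −0.81), and Rad21 stays near 0 (r = −0.06).

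In RefSeq on GRCm38 Smc1b lies on chromosome 15 (chr15:85064689-85131957, minus strand) and Smc1a on the X chromosome (chrX:152016428-152061973, plus strand). Stag2 is also X-linked (chrX:42149297-42277186, plus strand). The remaining genes are autosomal: Smc3 is at chr19:53600396-53645831, Rec8 at chr14:55618002-55625395, Stag1 at chr9:100597709-100958544 and Stag3 at chr5:138272514-138312397, all on the plus strand, and Rad21 at chr15:51962604-51993538 and Rad21l at chr2:151644366-151670622 on the minus strand. The promoter table held 7 of the 9 genes (not Rad21 and Stag2). The bases before the start sites of the SMC1 paralogs are shown because this pair had the widest difference in level of the SMC genes and because both start regions lie between the gene and a neighbor of the same family, Ribc2 beside Smc1b and Ribc1 beside Smc1a. For Smc1b they are chr15:85131965-85132077 (minus strand), and for Smc1a chrX:152016296-152016427 (plus strand). Each is read 5′ to 3′ on the strand of the gene in RefSeq GRCm38.p6 and leaves out annotated exons, among them those of the neighbor. The Smc1b stretch therefore ends short of the listed start at chr15:85131957. Capitals mark the match to the E2F motif GCGGGAA, here on the opposite strand.
Smc1b: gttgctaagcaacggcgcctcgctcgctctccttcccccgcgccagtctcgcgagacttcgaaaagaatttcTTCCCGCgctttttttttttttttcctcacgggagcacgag
Smc1a: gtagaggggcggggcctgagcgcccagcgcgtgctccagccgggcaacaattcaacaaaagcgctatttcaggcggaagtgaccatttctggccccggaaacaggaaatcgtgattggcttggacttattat
In the 250 bases before the listed promoter start, searched on both strands, GCGGGAA was present for Smc1b and Stag1 and in 3.82% of all 32851 promoters. The listed starts of Stag1 (chr9:100643448), Stag3 (chr5:138280509), Rec8 (chr14:55618166) and Rad21l (chr2:151668533) lie inside the gene bounds given above. All 250 bases searched for Stag3 are exonic in Stag3 itself. The E-box CACGTG (6.02% of promoters) was present for Stag3 only of the 7 genes, the MYB motif CAGTTG (11.1%) for Smc1a only, and the CRE motif TGACGTCA (1.55%) for none. The Smc1a match lies in an exon of Ribc1, outside the bases printed. These are matches of letters and not measured sites.

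From pachytene spermatocytes to round spermatids, transcripts of most cohesin subunits took a larger share of the RNA in WT cells. The genes that rose were Smc3, 3 of the 4 mitotic paralogs (Smc1a, Rad21 and Stag2) and 2 of the 4 meiotic ones (Rec8 and Smc1b). The call of Smc1b was kept in only 7 of 15 alternatives. In WT cells 6 of the 9 genes rose and 2 fell (edgeR quasi-likelihood test, adjusted p under 0.05), whereas 34.4% of the 14011 genes tested rose and 35.9% fell. The median log2 fold change of the 9 genes was 0.96, against −0.02 for all genes tested. Stag1 and Stag3 fell. In bulk samples fewer cells of a type and less RNA per cell cannot be told apart.

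In KO cells 5 genes rose and 2 fell between the same stages, with Rec8 the 1 meiotic paralog that rose, against 36.5% of 13877 genes that rose and 38.4% that fell. Called in both genotypes and in the same direction were 7 genes, all but Smc1b and Rad21l. Of all genes, 70.3% were called in either direction in WT and 74.9% in KO cells. The share of all genes called in both genotypes was not counted, so the 7 are not read as particular to cohesin. From round to condensing spermatids fewer genes changed: in WT cells Stag1 rose and Rec8, Smc3 and Stag3 fell, while 28.3% of all genes rose and 21.8% fell. The median log2 fold change of the 9 genes was then −0.47, against 0.04 for all genes. In KO cells Stag1 rose and Rec8 and Stag3 fell, against 29.7% and 24.5% of all genes, so that these 3 genes were called in both genotypes. At this step 50% of all genes were called in WT and 54.2% in KO cells, and the share called in both was again not counted.

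**Figure D2:**
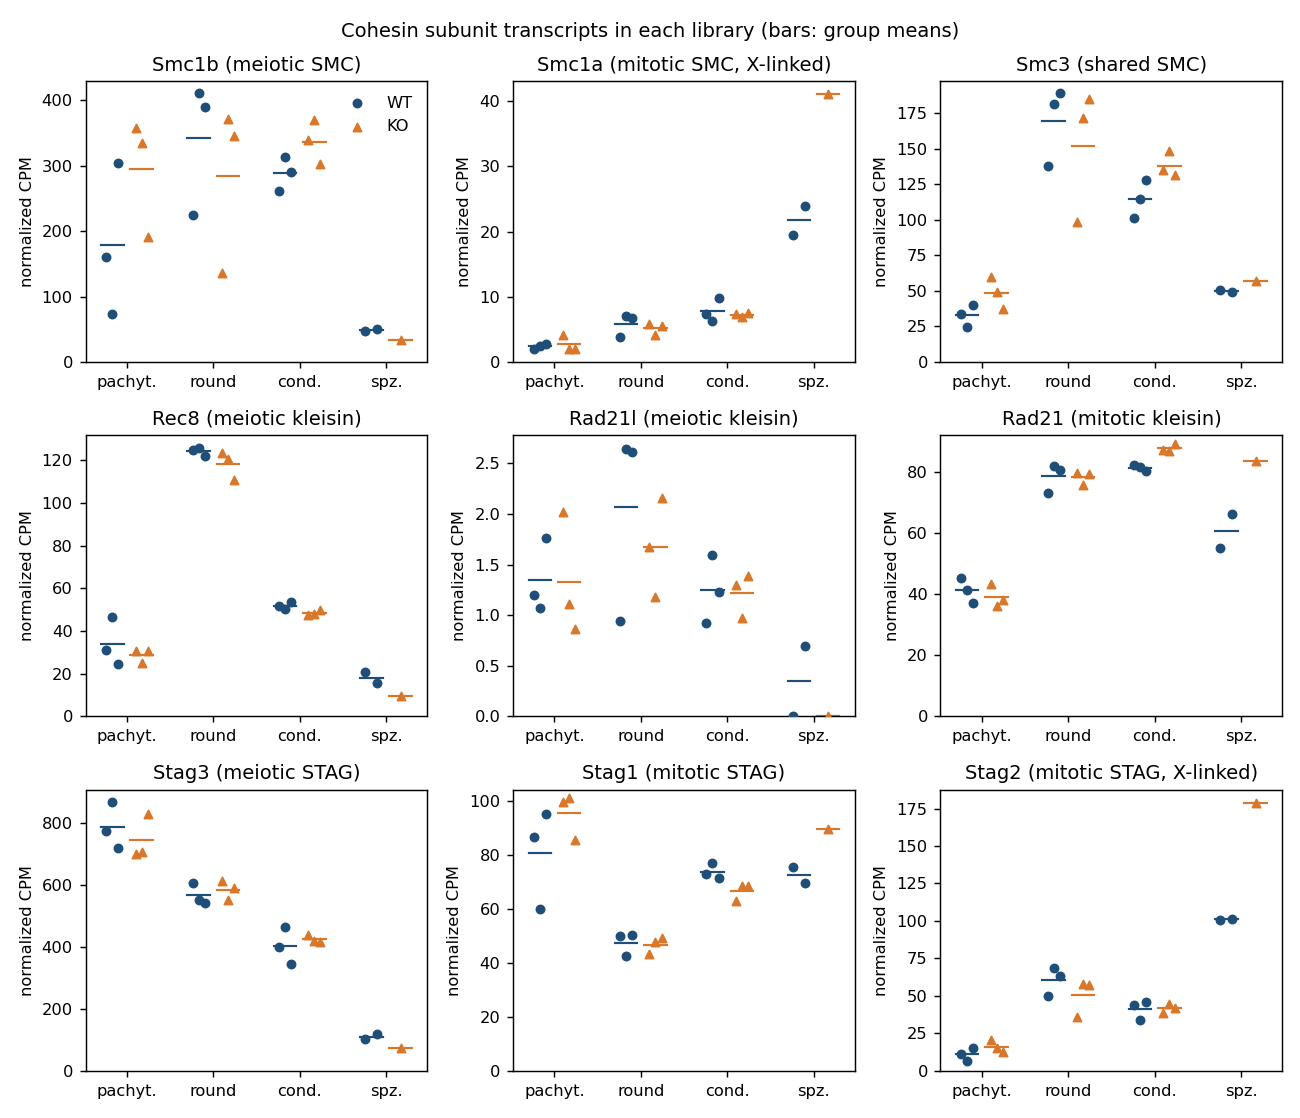
Normalized CPM (y axis, from 0) of each cohesin subunit in each of the 21 libraries, by stage (pachytene, round, condensing, spermatozoa) and genotype (blue circles WT, orange triangles KO), with bars at the group means. Rec8 is highest in round spermatids (111 to 126 CPM), Stag3 falls from stage to stage, and Smc1a and Stag2 are highest in spermatozoa.

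Smc1b, the meiotic partner of SMC3, was abundant from the spermatocyte onwards and varied widely between libraries of 1 group. In WT pachytene replicates 1, 2 and 3 it had 159.9, 73.9 and 303 CPM, in WT round spermatids 225, 410.2 and 389.7 CPM, and in WT condensing spermatids 260.5, 313 and 291 CPM. The pachytene and round libraries overlapped, and the lowest library of each was the one with the low GC index. Between pachytene and round WT spermatids the log2 fold change was 0.96 (SE 0.38, edgeR adjusted p 0.0358). This call was lost with the DESeq2 Wald test and its size factors together (adjusted p 0.0806; edgeR adjusted p 0.0348 with these size factors alone), with library size in place of TMM (edgeR adjusted p 0.0922), with the GC trend removed (log2 fold change 0.63, edgeR adjusted p 0.0616), with round replicates 2 and 3 summed (edgeR adjusted p 0.101) and without WT pachytene replicate 1 or 2 or WT round replicate 2 or 3 (edgeR adjusted p 0.0781 to 0.109), and it remained without the 4 libraries of low GC index (log2 fold change 0.81, edgeR adjusted p 0.0105).

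In KO cells Smc1b had 357, 335 and 191 CPM in pachytene, 135, 372 and 345 CPM in round and 338, 369.6 and 302 CPM in condensing libraries. The pachytene and round libraries overlapped here too (log2 fold change −0.07, SE 0.26, edgeR adjusted p 0.831). The difference between the genotypes in this stage change was tested as an interaction and did not pass (log2 −1.03, SE 0.54, edgeR adjusted p 0.676). Between round and condensing spermatids Smc1b did not pass the test in either genotype (log2 fold change −0.22 in WT and 0.26 in KO).

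Smc1a, the SMC1 protein of dividing somatic cells, was at the low end of the measured levels. It had 2.05, 2.39 and 2.79 CPM in WT pachytene spermatocytes, 3.76, 7.09 and 6.67 CPM in WT round spermatids and 7.38, 6.25 and 9.84 CPM in WT condensing spermatids, from 17 to 56 counts a library. Every round library lay above every pachytene library (log2 fold change 1.31, SE 0.30, edgeR adjusted p 0.00144). In KO cells it had 4.19, 2.06 and 2.01 CPM in pachytene, 5.84, 4.11 and 5.47 CPM in round and 7.34, 6.91 and 7.52 CPM in condensing libraries. The KO pachytene and round libraries overlapped, and the call there (log2 fold change 0.89, SE 0.28, edgeR adjusted p 0.00754) was lost without the libraries of low GC index (log2 fold change 0.59, edgeR adjusted p 0.107).

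Smc3, the SMC subunit of every cohesin ring, showed one of the largest rises among the 9 genes. It had 33.7, 24.7 and 40.0 CPM in WT pachytene, 138, 181 and 189 CPM in WT round and 101, 115 and 128 CPM in WT condensing libraries. The 3 stages did not overlap in WT cells. The log2 fold change was 2.40 from pachytene to round spermatids (SE 0.19, edgeR adjusted p 2.12e-07) and −0.54 from round to condensing spermatids (SE 0.18, edgeR adjusted p 0.0223).

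The later fall of Smc3 was lost with round WT replicates 2 and 3 summed (log2 fold change −0.49, edgeR adjusted p 0.0721) and without condensing WT replicate 1, round WT replicate 2 or round WT replicate 3 (edgeR adjusted p 0.0715 to 0.0900). In KO cells Smc3 had 59.6, 48.9 and 37.0 CPM in pachytene, 98.5, 171 and 185 CPM in round and 135, 148 and 131 CPM in condensing libraries. It rose from pachytene to round spermatids (log2 fold change 1.63, SE 0.19, edgeR adjusted p 2.12e-07), and the round and condensing libraries overlapped (log2 fold change −0.12, edgeR adjusted p 0.590). Without round KO replicate 1, the library of low GC index, the second difference passed the test (log2 fold change −0.37, edgeR adjusted p 0.0284).

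Rec8, the kleisin that holds sister chromatids until the second meiotic division, had its peak after meiosis. It had 30.9, 46.6 and 24.5 CPM in WT pachytene spermatocytes, 125, 126 and 122 CPM in WT round spermatids and 51.8, 50.4 and 53.6 CPM in WT condensing spermatids. The 3 WT round libraries were close to each other and far above those of the other stages. The KO libraries had 30.6, 24.9 and 30.7 CPM, 123, 121 and 111 CPM, and 47.3, 48.0 and 49.8 CPM in the same order of stages.

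From pachytene to round spermatids Rec8 rose by a log2 fold change of 1.90 in WT (SE 0.18, edgeR adjusted p 9.21e-07) and 2.03 in KO (SE 0.11, edgeR adjusted p 1.63e-12). From round to condensing spermatids it fell, with a log2 fold change of −1.23 in WT (SE 0.18, edgeR adjusted p 0.000129) and −1.28 in KO (SE 0.10, edgeR adjusted p 8.14e-09). All 4 calls were kept in every alternative run.

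Rad21, the mitotic kleisin, rose once and then held its level. It had 45.4, 41.3 and 37.2 CPM in WT pachytene, 73.3, 81.9 and 80.6 CPM in WT round and 82.3, 81.7 and 80.5 CPM in WT condensing libraries. Round and pachytene libraries were apart (log2 fold change 0.96, SE 0.11, edgeR adjusted p 5.66e-06), and round and condensing libraries overlapped (log2 fold change 0.08, 95% interval −0.14 to 0.29, edgeR adjusted p 0.591). KO libraries had 43.5, 36.2 and 38.0 CPM, 79.7, 75.8 and 79.3 CPM, and 87.3, 87.1 and 89.4 CPM. There the rise from pachytene to round spermatids had a log2 fold change of 0.98 (SE 0.10, edgeR adjusted p 3.11e-08), and the later difference did not pass (log2 fold change 0.18, edgeR adjusted p 0.117) although the groups did not overlap.

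Rad21l, the second meiotic kleisin, which is known from the early part of meiotic prophase, was near the limit of detection. Its counts were 10, 9 and 12 in WT pachytene, 7, 19 and 18 in WT round and 6, 11 and 7 in WT condensing libraries, and 13, 7 and 6, then 12, 8 and 15, then 9, 7 and 9 in the KO libraries. These are 0.861 to 2.64 CPM, and all groups overlapped. No stage change passed the test (log2 fold change 0.65, SE 0.42, edgeR adjusted p 0.177 from pachytene to round WT spermatids), and without round WT replicate 1 this change did pass (log2 fold change 1.01, edgeR adjusted p 0.0275). The change from round to condensing WT spermatids (log2 fold change −0.68, edgeR adjusted p 0.214) also passed without that library (−1.04, edgeR adjusted p 0.0416) and without the libraries of low GC index (−1.04, edgeR adjusted p 0.0420), so that at this depth the stages could not be ordered.

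Stag3, the meiotic STAG protein, was the most abundant of the 9 per length in all 3 stages and fell at each step. It had 773, 866 and 718 CPM in WT pachytene spermatocytes, 607, 552 and 542 CPM in WT round spermatids and 398, 465 and 345 CPM in WT condensing spermatids. The 3 stages did not overlap. The log2 fold change was −0.44 from pachytene to round (SE 0.13, edgeR adjusted p 0.00974) and −0.47 from round to condensing spermatids (SE 0.13, edgeR adjusted p 0.0106).

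In KO cells Stag3 had 699, 706 and 828 CPM, then 612, 551 and 591 CPM, then 437, 419 and 416 CPM. The falls were of the same order (log2 fold change −0.36, SE 0.10, edgeR adjusted p 0.00217, and −0.45, SE 0.10, edgeR adjusted p 0.000653). No alternative removed a call of Stag3.

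Stag1, which like Stag2 serves mitotic cohesin, was the gene with the opposite course to Rec8. It had 86.6, 59.9 and 95.02 CPM in WT pachytene, 49.96, 42.4 and 50.2 CPM in WT round and 72.9, 76.9 and 71.5 CPM in WT condensing libraries. Round libraries were the lowest of the 3 stages with no overlap. The log2 fold change was −0.73 into round spermatids (SE 0.16, edgeR adjusted p 0.00121) and 0.66 out of them (SE 0.16, edgeR adjusted p 0.00472). KO libraries had 99.5, 101 and 85.5 CPM, 43.1, 47.8 and 49.1 CPM, and 62.9, 68.6 and 68.5 CPM, with log2 fold changes of −1.05 (SE 0.11, edgeR adjusted p 3.49e-08) and 0.53 (SE 0.11, edgeR adjusted p 0.000443).

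Condensing libraries differed from round libraries in other cells' markers too. The 7 Sertoli cell markers, all detected, summed to 266 to 425 CPM in condensing, 19.2 to 41.4 CPM in round and 10.9 to 34.2 CPM in pachytene libraries. The 5 Leydig cell markers, all detected, summed to 74.6 to 197 CPM in condensing, 5.90 to 12.3 CPM in round and 22.4 to 138 CPM in pachytene libraries. The 4 peritubular myoid cell markers summed to 291 to 407 CPM in condensing, 314 to 412 CPM in round and 52.6 to 93.0 CPM in pachytene libraries, the 5 spermatogonium markers to 58.7 to 74.5, 34.4 to 52.3 and 25.7 to 48.5 CPM, and the 4 red blood cell markers to at most 1.9999 CPM in any of these. The part of somatic cells in the stage changes of the mitotic subunits was not tested.

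Stag2, the X-linked STAG gene, had the largest rise of the 9 in WT cells. It had 11.2, 6.81 and 15.1 CPM in WT pachytene, 50.2, 68.6 and 63.2 CPM in WT round and 43.7, 34.2 and 46.0 CPM in WT condensing libraries. Every round library was above every pachytene library (log2 fold change 2.50, SE 0.24, edgeR adjusted p 9.12e-07). KO libraries had 20.5, 15.6 and 12.5 CPM, 36.2, 58.0 and 57.2 CPM, and 38.6, 44.9 and 42.1 CPM, with a rise of 1.63 on the log2 scale (SE 0.18, edgeR adjusted p 1.22e-07).

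From round to condensing spermatids Stag2 did not pass the test in WT (log2 fold change −0.53, SE 0.22, edgeR adjusted p 0.0559) or in KO (log2 fold change −0.26, edgeR adjusted p 0.203). This was not stable: the WT groups did not overlap, 8 of 15 alternatives called it lower in WT, and with the GC trend removed it was lower in both genotypes (log2 fold change −0.71, edgeR adjusted p 0.000895, in WT, and −0.54, edgeR adjusted p 0.000409, in KO).

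Both X-linked subunits rose from pachytene to round spermatids, as most X-linked genes did. The X chromosome is transcriptionally silenced in pachytene spermatocytes and partly active again in round spermatids. Of 519 X-linked genes tested in WT cells 368 rose (70.9%) and 2 fell, with a median log2 fold change of 1.60, and of 507 in KO cells 369 rose (72.8%) and none fell, with a median of 1.61. The X-linked genes were looked at after the values of the 9 subunits had been seen. The changes of Smc1a (1.31 in WT and 0.89 in KO) lay below these medians, that of Stag2 in WT (2.50) above, and that of Stag2 in KO (1.63) close to it.

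**Figure D3:**
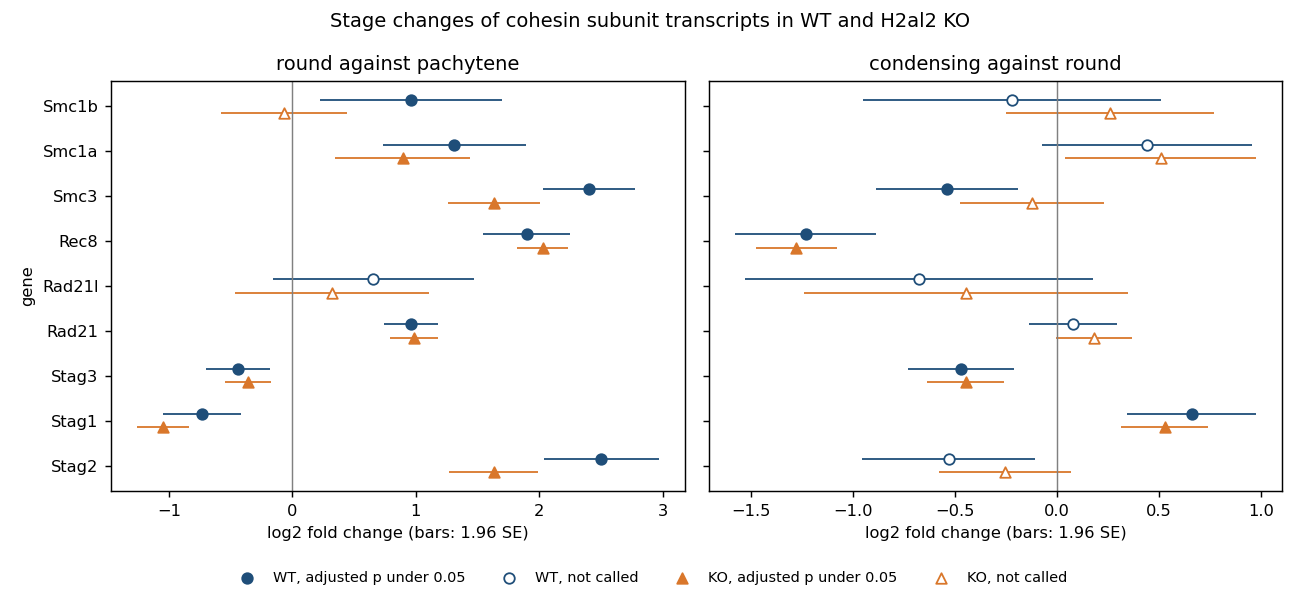
Log2 fold change (x axis) of each cohesin subunit (y axis) from pachytene to round (left) and from round to condensing spermatids (right), in WT (blue circles) and H2al2 KO (orange triangles); bars are 95% intervals, and filled symbols passed an adjusted p of 0.05 in edgeR. Rec8 rises and then falls in both genotypes, Stag1 does the reverse, and Smc1b is filled in WT only.

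The order of the levels was set mostly by Stag3 and Smc1b. In WT pachytene spermatocytes Stag3 had 187 ± 17.8 CPM per kb (SD, n = 3), followed by Smc1b with 44.2 ± 28.7, Rec8 with 15.6 ± 5.21, Stag1 with 13.01 ± 2.97, Rad21 with 10.4 ± 1.03, Smc3 with 6.77 ± 1.58, Stag2 with 1.75 ± 0.66, Rad21l with 0.81 ± 0.22 and Smc1a with 0.51 ± 0.08. The libraries of neighbors from Smc1b to Rad21 overlapped, and those of the others did not. In WT round spermatids Stag3 had 135 ± 8.30, Smc1b 84.4 ± 25.1, Rec8 56.9 ± 0.93, Smc3 34.9 ± 5.72, Rad21 19.9 ± 1.17, Stag2 9.62 ± 1.49, Stag1 7.68 ± 0.71, Smc1a 1.25 ± 0.39 and Rad21l 1.24 ± 0.59 CPM per kb (SD, n = 3). There Smc1b overlapped Rec8, Stag2 overlapped Stag1, and Smc1a overlapped Rad21l.

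In WT condensing spermatids the order was Stag3 (95.6 ± 14.3 CPM per kb, SD, n = 3), Smc1b (71.2 ± 6.50), Rec8 (23.8 ± 0.72), Smc3 (23.6 ± 2.77), Rad21 (20.6 ± 0.24), Stag1 (11.9 ± 0.45), Stag2 (6.55 ± 0.998), Smc1a (1.67 ± 0.39) and Rad21l (0.75 ± 0.20). Only Rec8 and Smc3, and Smc3 and Rad21, overlapped. Meiotic paralogs thus stood above their mitotic counterparts in the SMC1 and STAG pairs of all 3 WT stages, whereas Rad21l stood below Rad21. In WT cells Rec8 stood above Rad21 without overlap in round and condensing spermatids, and its lowest pachytene library overlapped those of Rad21. In KO cells Rec8 stood above Rad21 without overlap in pachytene and round spermatids, and in condensing spermatids both were at the same level (22.1 and 22.2 CPM per kb) with overlap.

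The ratio of a meiotic paralog to its mitotic counterpart was then taken within each library from the counts, with 0.5 added to both, so that it does not depend on scaling between libraries. These count ratios are not corrected for exon length and were compared only between libraries, never with 1. They were not computed with the GC trend removed, only without the libraries of low GC index. Stag3 ran against the GC index (r = −0.64) and Stag2 followed it (r = 0.86). Rec8 ran against it (r = −0.81) and Rad21 had r = −0.06. Differences in GC representation between libraries can therefore enter these ratios. Stage changes of the ratio were tested over both genotypes with an exact permutation test, two-sided, of the stage labels within each genotype (400 arrangements, smallest possible p 0.005), and genotype with the labels permuted within each stage (8000 arrangements, smallest possible p 0.00025). The 15 p-values were adjusted together.

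Of the stage changes 4 passed. The Rec8 to Rad21 ratio rose from pachytene to round spermatids by 1.02 on the log2 scale, or 2.02-fold (exact permutation p = 0.005, adjusted p 0.0188), and fell by 1.38 on the log2 scale into condensing spermatids (exact permutation p = 0.005, adjusted p 0.0188). In WT libraries it was 0.658 to 1.13 in pachytene, 1.51 to 1.70 in round and 0.618 to 0.666 in condensing libraries, and in KO libraries 0.689 to 0.808, 1.40 to 1.59 and 0.542 to 0.557. Every round library lay above every pachytene and every condensing library of its genotype. Per length, the mean Rec8 level was 1.49, 2.86 and 1.15 times that of Rad21 in WT and 1.33, 2.74 and 0.996 times in KO cells.

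The Stag3 to Stag1 ratio fell by 1.06 on the log2 scale from round to condensing spermatids (exact permutation p = 0.005, adjusted p 0.0188). It was 10.8 to 13 in WT round and 4.81 to 6.04 in WT condensing libraries, and 11.5 to 14.2 and 6.08 to 6.95 in KO libraries. The Stag3 to Stag2 ratio fell by 2.48 on the log2 scale from pachytene to round spermatids (exact permutation p = 0.005, adjusted p 0.0188). It was 47.3 to 126 in WT pachytene and 8.05 to 12.1 in WT round libraries, and 33.95 to 65.98 and 9.49 to 16.9 in KO libraries, a difference of −2.98 in WT and −1.98 in KO.

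The Smc1b to Smc1a ratio did not pass from pachytene to round (log2 −0.59, exact permutation p = 0.235, adjusted p 0.392) or from round to condensing spermatids (log2 −0.39, exact permutation p = 0.27, adjusted p 0.405). It was 30.2 to 106 in WT pachytene, 57.3 to 58.8 in WT round and 29.3 to 49.5 in WT condensing libraries, and its spread within groups was the widest of the 5 ratios (pooled SD 0.62 on the log2 scale). Without pachytene WT replicate 2 the first of these passed (log2 −0.86, exact permutation p = 0.01, adjusted p 0.025), and without round KO replicate 1 the second did (log2 −0.67, exact permutation p = 0.005, adjusted p 0.015), and both are libraries of low GC index. The Rad21l to Rad21 ratio did not pass either (log2 −0.54, exact permutation adjusted p 0.233, and log2 −0.60, exact permutation adjusted p 0.137), but its fall into condensing spermatids did without round WT replicate 1 (log2 −0.82). The Stag3 to Stag1 ratio from pachytene to round spermatids (log2 0.48, exact permutation adjusted p 0.105) passed without pachytene WT replicate 2 (log2 0.61, exact permutation adjusted p 0.015).

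**Figure D4:**
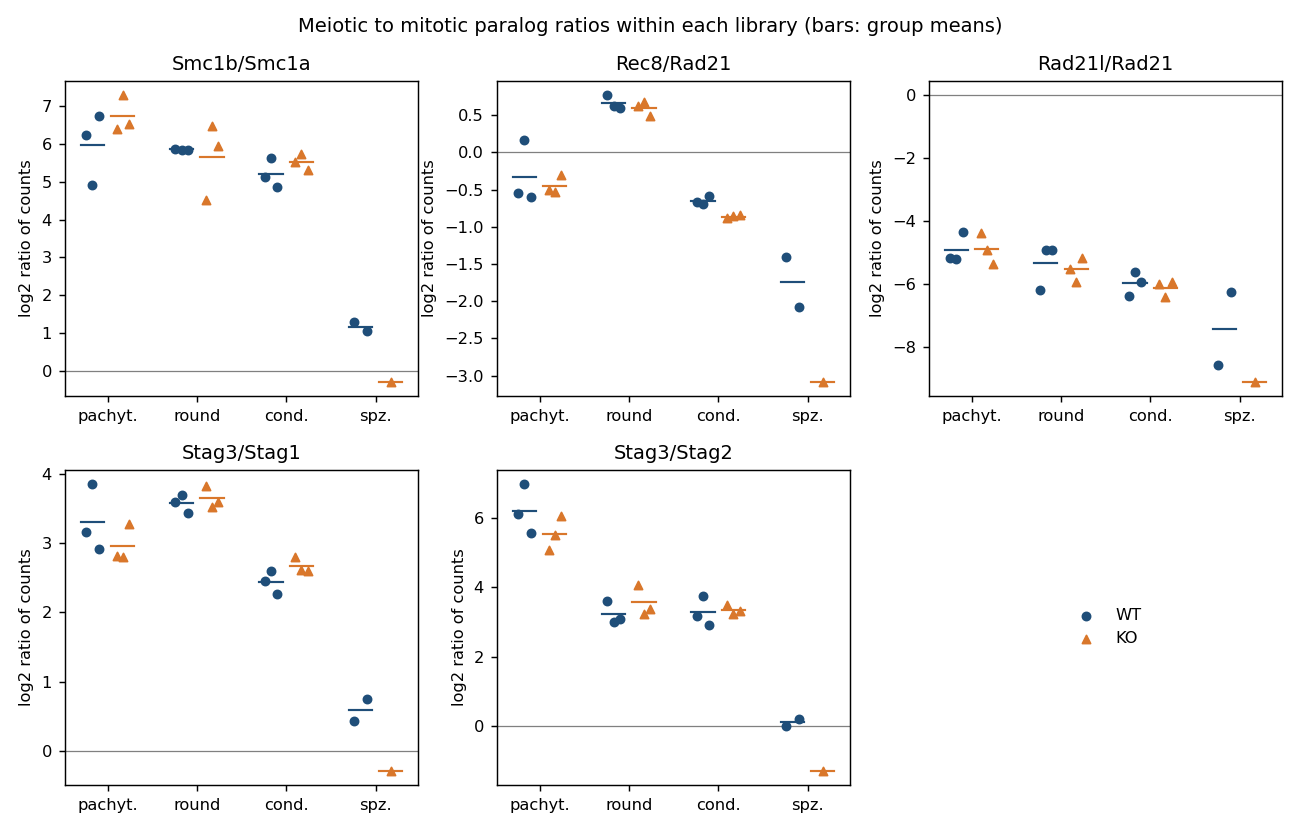
Log2 ratio of meiotic to mitotic paralog counts (y axis, 0.5 added to both counts) in each of the 21 libraries, by stage and genotype (blue circles WT, orange triangles KO), with bars at the group means and a grey line at equal counts, which is not equal level because exon lengths differ. Rec8/Rad21 is higher in all round libraries than in any pachytene or condensing library, and the WT group means of all 5 ratios are lowest in spermatozoa.

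Loss of H2A.L.2 was compared with WT within each stage. None of the 9 genes was called in any of the 3 stages by edgeR or by the DESeq2 Wald test. Over all genes edgeR called 0% of 12236 in pachytene spermatocytes, where 815 had an unadjusted p under 0.05 and DESeq2 called 2, 0.0156% of 12804 in round spermatids, where 753 had one and DESeq2 called 6, and 0.00728% of 13734 in condensing spermatids, where 870 had one and DESeq2 called 9. At an unadjusted p under 0.05 there was 1 of 8 subunits tested in pachytene, none of 9 in round and 1 of 8 in condensing spermatids, each time Smc3 (log2 fold change 0.62, SE 0.24, unadjusted p 0.0294, edgeR adjusted p 0.656, and 0.26, SE 0.11, unadjusted p 0.0387, edgeR adjusted p 0.763). Rad21l was too low to be tested in pachytene and condensing spermatids.

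The intervals differed between the genes. In round spermatids the 95% interval of the log2 difference (KO minus WT) was −0.22 to 0.10 for Rec8, −0.17 to 0.17 for Rad21, −0.10 to 0.20 for Stag3 and −0.22 to 0.19 for Stag1, but −0.87 to 0.36 for Smc1b and −1.10 to 0.53 for Rad21l. In pachytene spermatocytes it was −0.17 to 1.67 for Smc1b, −0.01 to 1.24 for Stag2 and −0.21 to 0.20 for Stag3. In condensing spermatids the widest was −0.51 to 0.30, for Smc1a.

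Summed markers of some cell types did not overlap between the genotypes. This is no test: for 3 against 3 libraries the smallest possible p of a two-sided exact permutation test is 0.1. The share of all genes without overlap was not counted. The summed Sertoli cell markers did not overlap between WT and KO in pachytene (27.9 to 34.2 CPM in WT and 10.9 to 20.03 CPM in KO), round (26.4 to 41.4 and 19.2 to 25.6 CPM) or condensing libraries (330 to 425 and 266 to 321 CPM). The Leydig cell markers did not overlap in round (9.80 to 12.3 and 5.90 to 8.63 CPM) or condensing libraries (129 to 197 and 74.6 to 113 CPM), and the macrophage markers not in condensing libraries (20.5 to 25.2 and 12.8 to 20.4 CPM). Round spermatid markers did not overlap in condensing libraries either (697 to 764 CPM in WT and 790 to 836 CPM in KO). In all other lists and stages the sums of WT and KO overlapped. The part of these cells in the differences of the subunits between genotypes was not tested.

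One library decided a call. Without pachytene WT replicate 3, the library of highest GC index, Smc1b was called higher in KO pachytene spermatocytes (log2 fold change 1.44, edgeR adjusted p 0.0479), together with 242 other genes. Of the 5 paralog ratios none passed the test of genotype over the 3 stages (log2 −0.13 to 0.29, exact permutation p = 0.125 to 0.921, adjusted p 0.233 to 0.921). For the difference between genotypes in a stage change, the interaction called 0% of 14479 genes for round against pachytene (1050 genes at an unadjusted p under 0.05, 1 gene by DESeq2) and 0% of 14479 for condensing against round (407 genes, and 0 by DESeq2). Of the subunits Smc3 (log2 −0.78, unadjusted p 0.0186) and Stag2 (log2 −0.88, unadjusted p 0.015) were under 0.05 unadjusted in the first, both with an edgeR adjusted p of 0.676, and none in the second.

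**Figure D5:**
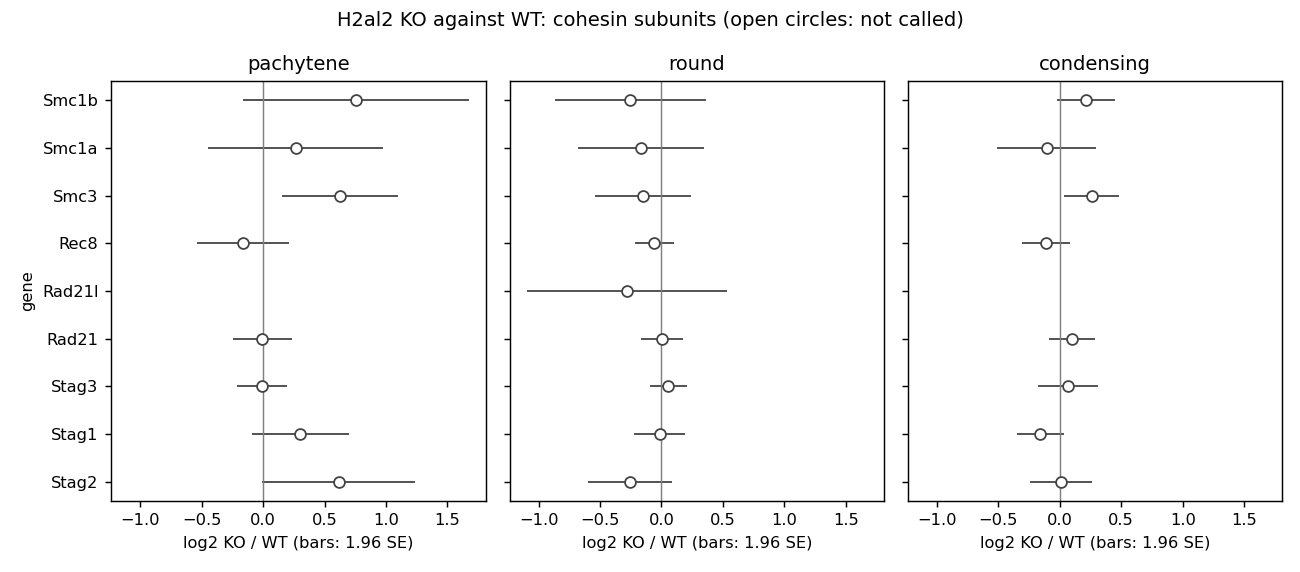
Log2 difference between H2al2 KO and WT (x axis; bars are 95% intervals) of each cohesin subunit (y axis) in pachytene spermatocytes, round spermatids and condensing spermatids; open circles are not called by edgeR, and Rad21l has no value where it was too low to be tested. No subunit is called, and the bars are widest for Smc1b in pachytene and for Rad21l in round spermatids.

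Spermatozoa entered no test, and for genotype the KO was 1 library. Their levels are given as a description. Smc1a had 19.5 and 23.9 CPM in WT and 41.1 CPM in KO spermatozoa (exact binomial 95% interval 34.5 to 48.7), and Stag2 had 101 and 101 CPM in WT and 179 CPM in KO (165 to 194), above every library of the other stages. Stag3 had 102 and 118 CPM in WT and 73.4 CPM in KO (64.4 to 83.3), Smc1b 47.8 and 49.9 CPM in WT and 33.5 CPM in KO (27.5 to 40.4), and Rec8 20.7 and 15.6 CPM in WT and 9.75 CPM in KO (6.67 to 13.8), below every library of the other stages. Rad21 (55.1 and 66.3 CPM in WT, 83.7 CPM in KO) and Stag1 (75.5 and 69.7, and 89.5) stayed within the range of the other stages. So did Smc3 (50.7 and 49.3 CPM in WT, 56.6 CPM in KO).

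Rad21l had 0 and 2 counts in WT and 0 in KO spermatozoa, and the limit set by the 0 counts, taken as 3 counts per library, is 0.874 CPM in the WT and 0.914 CPM in the KO library. Intervals and limits of this kind cover counting error only. The Stag3 to Stag2 ratio was 1.01 and 1.16 in WT and 0.411 in KO spermatozoa, and the Smc1b to Smc1a ratio 2.44 and 2.08 in WT and 0.815 in KO. The 5 macrophage markers, all detected, summed to 242 and 245 CPM in WT and to 1076 CPM in KO spermatozoa, against 1.91 to 25.2 CPM in all other libraries, and the Sertoli cell markers to 204 to 280 CPM, while the spermatocyte markers summed to 385 to 533 CPM. The elongating spermatid markers summed to 27101 and 24565 CPM in WT and to 10158 CPM in KO spermatozoa. The part of all these cells in the levels of the subunits in spermatozoa, Smc1a and Stag2 among them, was not tested.

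The genes of proteins that load, release, protect and cleave cohesin were counted next. Of 19 such genes 18 were tested, and in WT cells 3 rose and 5 fell from pachytene to round spermatids (16.7% and 27.8%, against 34.4% and 35.9% of all genes; median log2 fold change −0.22). From round to condensing WT spermatids none rose and 5 fell (27.8%, against 21.8% of all genes; median −0.07). In KO cells 2 rose and 10 fell (11.1% and 55.6%, against 36.5% and 38.4%), then 2 rose and 4 fell (11.1% and 22.2%, against 29.7% and 24.5%). The genes that rose first in WT cells were kinases: Plk1, which phosphorylates cohesin for its removal, went from a mean of 67.2 to 148 CPM (log2 fold change 1.18, SE 0.18, edgeR adjusted p 6.17e-05), the haspin kinase gene (listed as Gsg2) from 700 to 1273 CPM (log2 fold change 0.90), and the centromere kinase gene Bub1 from 86.2 to 120 CPM (log2 fold change 0.51). In KO cells Bub1 did not pass (log2 fold change 0.00).

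These 3 kinase genes were also those with the largest falls from round to condensing WT spermatids, with log2 fold changes of −1.06 for Plk1, −0.61 for Gsg2 and −0.68 for Bub1. The largest falls from pachytene to round spermatids were of the securin gene Pttg1 (69.3 to 30.5 CPM, log2 fold change −1.15), of Meikin, which protects REC8 at centromeres in meiosis I (29.3 to 13.2 CPM, log2 fold change −1.11), and of the shugoshin gene Sgol2a, whose product shields REC8 from cleavage (91.1 to 42.2 CPM, log2 fold change −1.08). All 3 fell in KO cells as well (log2 fold change −1.27, −1.16 and −1.73). Meikin and Sgol2a thus fell at the step at which Rec8 rose, while Plk1, Gsg2 and Bub1 of the same list rose at it in WT cells.

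The subunits of the related condensin and SMC5/6 complexes were counted for comparison. Of 15 genes tested in WT cells 1 rose, 6 fell and 8 did not pass from pachytene to round spermatids (6.67% and 40%, against 34.4% and 35.9% of all genes; median log2 fold change −0.29), so that the share that fell was close to that of all genes. From round to condensing WT spermatids 5 rose and 3 fell (33.3% and 20%, against 28.3% and 21.8%; median 0.03). In KO cells 1 rose and 10 fell (6.67% and 66.7%, against 36.5% and 38.4%), then 6 rose and 3 fell (40% and 20%, against 29.7% and 24.5%). Smc5 was the gene that rose (198 to 280.5 CPM, log2 fold change 0.54, edgeR adjusted p 0.0379), and in KO cells it did not pass (log2 fold change 0.09).

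The largest falls were of the SMC5/6 genes Ndnl2 (now Nsmce3; 33.1 to 5.53 CPM, log2 fold change −2.55) and Nsmce4a (30.3 to 6.61 CPM, log2 fold change −2.16) and of the condensin II gene Ncapd3 (55.1 to 15.7 CPM, log2 fold change −1.78), and the same 3 genes had the largest rises afterwards (log2 fold change 1.03, 1.09 and 0.64). The largest falls into condensing spermatids were those of Nsmce1 (log2 fold change −0.72), Eid3 (−0.47) and Ncapd2 (−0.44). In KO cells all 6 genes were called in the same directions at the same steps.

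Genes with the most similar course to a meiotic subunit were found by the correlation of log2 CPM over the 18 libraries of the 3 stages, among 10194 genes of at least 5 CPM. For Rec8 they were Dip2b, Lrp5 and Ccdc184 (Pearson's r = 0.993, 0.99 and 0.989), for Stag3 Cct3, Gemin5 and Sugp2 (r = 0.994, 0.994 and 0.991), and for Smc1b Ccdc88a, Vps13a and Cep290 (r = 0.991, 0.987 and 0.987). For Rad21l the closest were 4933429O19Rik, Epyc and D2hgdh, at an r of 0.715, 0.715 and 0.714. The 18 points share their stage, library and GC index, and the values describe these libraries only.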

How the data were processed

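The authors made the libraries with a stranded total RNA kit after ribosomal RNA depletion, sequenced them paired-end, and deposited raw read counts per gene on mm10, 1 table for each library, without normalization or pooling; the submitters' processing notes name STAR 2.7.11b, HTSeq and DESeq2 1.22.2. Reads were counted over exons on the transcribed strand, without those aligned to several places. Rows that name no gene (34.6% to 57.7% of the counts of a library) were left out. Groups came from the labels. The members and gene lists were chosen with earlier results of these data known.

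Differences were tested with edgeR 4.0.16 (R 4.3.3; TMM, filterByExpr, quasi-likelihood test) over all genes, with Benjamini-Hochberg adjustment at 0.05, on the libraries of 1 genotype for the stages, of 1 stage for genotype, and on 18 libraries for interactions; SE is the log2 fold change divided by the square root of F, and intervals are 95% normal intervals. DESeq2 1.42.0 was an alternative. The fits and permutation tests were tested on simulated data first. The alternatives with the GC trend removed and without the libraries of low GC index were chosen after seeing the data; GC content was known for 98.4% of genes. Exon lengths are those of GENCODE vM21 on GRCm38. No base of a member's exons overlaps another gene on the same strand, and 75-base windows shared with another gene made up 0% of each member but Smc3 (0.329%), with pairs of mates not considered. Named genes were the 9 members, H2afb1, up to 3 called rises and 3 called falls per list and WT stage comparison with at least 1 CPM on average, and the 3 genes most like each meiotic member; Ribc1 and Ribc2 were chosen after the promoters were read, and X-linked genes after the values were seen. Depth limits Rad21l and Smc1a most. The spermatozoa were normalized with the other libraries but entered no test.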

Additional observations from a re-analysis of the deposited data

How the results depend on the processing

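The alternatives gave 872 fold changes of the subunits, of which 807 had the same sign and the same call as reported, 13 lost a call, 18 gained one and 34 changed sign, none of these past the threshold in either setting. The alternatives were DESeq2's Wald test with its own size factors, which changes test and scaling together, and, with 1 choice changed each, DESeq2's size factors, library size only, no filter, all 18 libraries, summed round WT replicates 2 and 3, each library left out and the added GC settings. All calls of Rec8, Rad21, Stag1 and Stag3 between stages were kept. With library size only, the median of all genes from pachytene to round WT spermatids moved from −0.02 to −0.20, so that changes are relative to this. Depth limits Rad21l and Smc1a, and the cause of the changes below was not tested.

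The replicate numbers did not pair the libraries (correlations of same-numbered deviations −0.229 to 0.308, and in 14 of 42 comparisons a library correlated best with its own number). The replicate block left the members called at 8 from pachytene to round WT spermatids and moved those from round to condensing from 4 to 5. With the replicate block, permuted over 6 pairs with a smallest p of 0.03125, the ratios lost their calls with the same values, 1.02 and −1.38 for Rec8 to Rad21, −1.06 for Stag3 to Stag1 and −2.48 for Stag3 to Stag2 (exact permutation adjusted p 0.0938), which says nothing of their stability. For Stag3 to Stag2 the change was −2.98 in WT and −1.98 in KO libraries.

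Without the libraries of low GC index the changes from round to condensing spermatids were −0.668 for Smc1b to Smc1a (exact permutation adjusted p 0.05), −0.813 for Rad21l to Rad21, which passed, and 0.132 for Stag3 to Stag2, and 5 members were called from round to condensing KO spermatids in place of 3. There Smc1b changed sign from pachytene to round (0.0327) and from round to condensing KO spermatids (−0.0891), as did the KO effect on Rec8 in pachytene (0.0331) and on Rad21 (−0.0532) and Stag1 (0.0799) in round cells. With the GC trend removed, sign changes were −0.0188 for Rad21 from round to condensing WT spermatids, 0.0255 for the KO effect on Stag1 in round and −0.0122 for that on Stag2 in condensing cells, which was −0.0162 with library size only.

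With each library left out, the ratio changes ranged for Smc1b to Smc1a from −0.857 to −0.312 into round and from −0.673 to −0.184 into condensing spermatids, for Rad21l to Rad21 from −0.817 to −0.498 into condensing, for Stag3 to Stag1 from 0.378 to 0.612 into round, and for Stag3 to Stag2 from −0.206 to 0.0425 into condensing spermatids. The KO effect ranged from −0.0805 to 0.0757 on Stag3 to Stag1 and from −0.203 to 0.0322 on Stag3 to Stag2. In WT cells the members called ranged from 7 to 9 from pachytene to round and from 3 to 6 from round to condensing spermatids. They ranged from 3 to 5 from round to condensing KO spermatids (5 without round KO replicate 1). For KO against WT in pachytene they ranged from 0 to 1 (1 without WT replicate 3). In KO cells Smc1b ranged from −0.310 to 0.279 into round and from −0.0886 to 0.5001 into condensing spermatids, and Smc3 from −0.367 to 0.0189 into condensing. The KO effect in pachytene ranged from −0.184 to 0.470 for Smc1a, −0.0727 to 0.0151 for Stag3, −0.107 to 0.0603 for Rad21 and −0.310 to 0.0685 for Rec8. In round spermatids it ranged from −0.498 to 0.0874 for Smc1b, −0.316 to 0.0921 for Smc3, −0.0826 to 0.0474 for Stag1, −0.0409 to 0.0439 for Rad21 and −0.404 to 0.00902 for Smc1a, and in condensing spermatids from −0.116 to 0.108 for Stag2, −0.256 to 0.0920 for Smc1a and −0.0236 to 0.176 for Stag3.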

Other observations

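Smc1b and Smc1a each start opposite a gene of the RIBC family, whose products belong to the microtubule doublets of cilia and flagella. Ribc2, beside Smc1b, had a mean of 47.8 ± 9.02 CPM in WT pachytene, 64.3 ± 3.07 CPM in WT round and 31.1 ± 1.41 CPM in WT condensing libraries (SD, n = 3). It rose by 0.46 and then fell by 1.02 on the log2 scale (edgeR adjusted p 0.00829 and 8.48e-05), and in KO cells the values were 0.69 and −0.99 (edgeR adjusted p 4.47e-06 and 2.39e-07). Ribc1, beside Smc1a on the X chromosome, had 15.7 ± 2.60, 69.6 ± 5.94 and 33.4 ± 3.64 CPM (SD, n = 3), and rose by 2.18 and fell by 1.04 on the log2 scale in WT cells (edgeR adjusted p 6.95e-08 and 8.04e-05). Both neighbors fell from round to condensing spermatids, where Smc1b and Smc1a did not pass the test in either direction (log2 fold change −0.22 and 0.44 in WT cells). In spermatozoa Ribc1 had 7.58 and 8.32 CPM in WT, below every library of the other stages, where Smc1a was above them all.

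Among the subunits themselves Smc3 and Stag2 had the most similar levels over the 18 libraries of the 3 stages (Pearson's r = 0.99 on the log2 scale), and both follow the GC index of the library. Rec8 and Stag1 ran most against each other (r = −0.96), and Rad21 followed Smc3 (r = 0.90) and Smc1a (r = 0.90) more closely than it followed Rec8 (r = 0.69). These values describe libraries of 3 stages and carry no test.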
